A study of Homo sapiens with 16 samples.

Results

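The genes described are the D and E cyclins CCND1, CCND2, CCND3, CCNE1 and CCNE2, the kinases CDK2, CDK4 and CDK6 that these cyclins activate, and the inhibitors CDKN1B (p27) and CDKN2C (p18). A probe set, which is a group of short probes on the array, was taken where the platform's annotation gave it exactly 1 gene symbol and that symbol was one of these 10 genes. This found 15 of the 19070 probe sets with 1 symbol, for 9 of the 10 genes, and CDKN2C was not analysed here. Of the 15, 10 probe sets of 8 genes passed a filter on dim signals, which asked for 2 or more arrays at log2 4 or above, as did 10947 probe sets of 7314 genes in all. The genes were listed by name and the rule used no values, but earlier results of these data were known when the list was made.

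RNA came from A673, an established Ewing sarcoma cell line driven by the fusion gene EWS-FLI1, an aberrant ETS transcription factor. All samples were of 1 clone, Asp14, which carries a construct for a doxycycline-inducible knockdown of EWS-FLI1 and was grown with Zeocin and Blasticidin to keep the vectors. The untreated control was taken at 0 h, when doxycycline was added (4 arrays), and the other arrays were taken 18 h (3 arrays), 36 h (3), 53 h (2), 72 h (2) and 96 h (2) after doxycycline at 1 ug/ml. The series title concerns the relation between EWS-FLI1 and E2F factors. No untreated sample was of a later time, so an effect of time in culture or of doxycycline cannot be told apart from that of losing the fusion.

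Cells enter S phase once cyclin-dependent kinases have phosphorylated the RB protein, which then releases E2F transcription factors. D cyclins bind CDK4 or CDK6 and start this step in response to growth signals, and E cyclins bind CDK2 and complete it. The E cyclin genes are E2F targets, p27 holds cyclin E-CDK2 inactive, and p18 and its relatives block CDK4 and CDK6. In Ewing sarcoma, cyclin D1 is known as a highly expressed gene that depends on EWS-FLI1.

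The fusion was read through FLI1, whose probe set measured log2 values of 10.17, 10.08, 10.06 and 9.99 at 0 h and between 6.34 and 7.17 on all 12 later arrays. FLI1 was still low at 96 h (6.92 and 6.52), a change of -3.35 on the log2 scale (SE 0.16). Of 8 Ewing sarcoma markers tested, a list that includes FLI1 itself, 7 were lower at 18 h and 8 at 96 h, where 14.3% and 34.2% of all probe sets were lower. All listed blood and epithelial cell markers that were analysed were below the filter, and of the endothelial markers PECAM1, VWF, CDH5 and TEK were below it while KDR, at most 3.84 on any array at 0 h, was higher from 36 h on (adjusted p from 1.24e-08 to 0.000532). The upper quartile of the log2 values lay between 8.08 and 8.18 on every array. Signal at the 3' end of ACTB less that at its 5' end, a measure of RNA quality, ran from 1.47 to 2.06 in untreated cells, was highest at 36 h (2.09 to 2.45), and ran from 1.61 to 1.70 and from 1.56 to 1.83 at the last 2 times. Replicates 2 and 3 were closer to each other than other arrays of a group at 0 h, 18 h and 36 h, with an SD of their differences over probe sets of 0.174 to 0.195 against 0.249 to 0.534 for all other pairs.

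Cyclins D1, D3 and E2 and CDK2 fell, and p27 rose, within 18 h, and the dim signal of cyclin E1 was lower too. At 96 h cyclin D1 was still about 5 times lower than at 0 h, while cyclin D3, cyclin E2 and p27 had means close to those of untreated cells, CDK2 had risen most of the way back, and cyclin E1 was measured too loosely to place. All changes below are differences of mean log2 values from limma, with p-values adjusted by Benjamini-Hochberg over 10947 probe sets, and the 5 comparisons with 0 h share the same 4 untreated arrays. In RNA from whole cultures, fewer cells that express a gene and less RNA per cell cannot be told apart. Of the 10 probe sets, 7 were lower and 1 higher at 18 h, where 14.3% and 13.4% of all probe sets were lower and higher. At 36 h 8 were lower and 1 higher, against 31.8% and 31.3% of all. At 53 h 8 were lower and 2 higher (33.2% and 31.3% of all), and at 72 h again 8 and 2 (36.9% and 30.2% of all). At 96 h 3 were lower and 0 higher in limma, with 3 at an unadjusted p under 0.05, where 34.2% and 24.7% of all were called. The median change of the 10 probe sets was -1.02, -2.25, -1.79, -1.76 and -0.109 at the 5 times in order, while that of all probe sets lay between -0.0969 and 0.00657. These counts and medians describe the probe sets that passed the filter. CCNE1's and 211804_s_at of CDK2 passed it only through times at which they were high. Without both, 5 of 8 were lower at 18 h, 6 of 8 at each time from 36 h to 72 h and 3 of 8 at 96 h. The median change of these 8 was -0.78, -1.94, -1.76, -1.41 and -0.109 at the 5 times in order. ACTB's 3' signal stood apart most at 36 h, where the median was lowest, and its part in the result was not tested. By the F test over all times, 10 of 10 passed, CCNE1's and 211804_s_at among them, as did 81.8% of all probe sets.

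CCND1 encodes cyclin D1, the partner of CDK4 and CDK6. Its brighter probe set (208712_at) measured 12.87, 12.66, 12.66 and 12.93 at 0 h, 11.27, 10.83 and 10.94 at 18 h, and 10.35, 10.003 and 9.86 at 36 h. It then measured 9.84 and 9.65 at 53 h, 10.13 and 9.70 at 72 h, and 10.70 and 10.20 at 96 h. Every treated array was below every untreated one, and the lowest arrays were 1 of 53 h and 1 of 72 h. The change was -1.77 at 18 h (SE 0.16, adjusted p = 9.13e-06), -3.04 at 53 h (SE 0.18, adjusted p = 1.08e-08) and -2.33 at 96 h (adjusted p = 1.94e-07), which is 5.02-fold lower. The second probe set (208711_s_at) had means of 11.32 ± 0.21 at 0 h (SD, n = 4), 9.61 ± 0.08 at 18 h (n = 3), 8.40 ± 0.27 at 36 h (n = 3) and 9.01 ± 0.38 at 96 h (n = 2). It was also lower at all times, with changes of -2.92 at 36 h and -2.31 at 96 h. From 72 h to 96 h the 2 probe sets differed by 0.54 (adjusted p = 0.0755) and 0.13 (adjusted p = 0.765), and neither passed, although the first did without replicate 2 of 96 h (0.79, adjusted p = 0.0298).

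CCND2 and CCND3 encode the other D cyclins. The 3 probe sets of CCND2 measured between 1.78 and 2.47 on all 16 arrays, so CCND2 was not above the filter at any time and was not tested. CCND3 measured 8.48, 8.75, 8.70 and 8.77 at 0 h, 7.44, 8.11 and 8.17 at 18 h, and 7.25, 7.49 and 7.61 at 36 h. It measured 7.30 and 7.38 at 53 h, 7.69 and 7.98 at 72 h, and 8.78 and 8.61 at 96 h. The arrays from 18 h to 72 h lay below all untreated ones, and both 96 h arrays lay within or just above the untreated range. CCND3 was lower at 53 h by a change of -1.34 (SE 0.18, adjusted p = 2.55e-05), and at 96 h its change was 0.021 with a 95% interval of -0.38 to 0.42. It rose by 0.86 between 72 h and 96 h (SE 0.21, adjusted p = 0.0094), a call that was lost without replicate 1 of 72 h (0.72, adjusted p = 0.091) or without replicate 1 of 96 h (0.78, adjusted p = 0.0723).

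**Figure D1:**
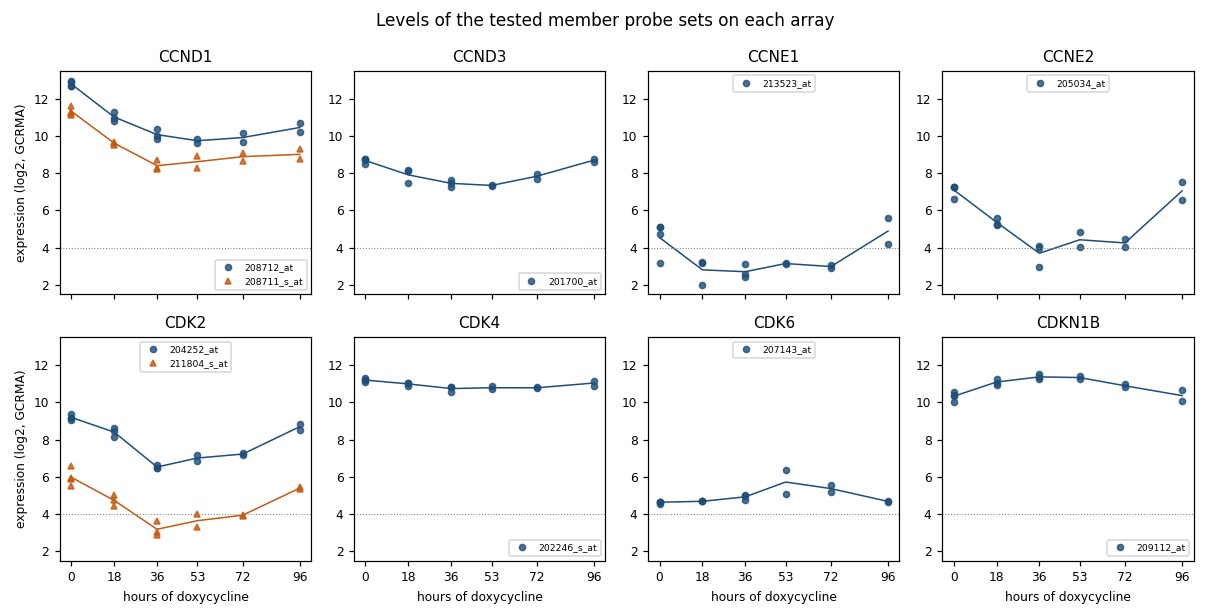
Log2 level of 8 genes on each of the 16 arrays (vertical axis) against hours after doxycycline (horizontal axis), with 1 point per array, the group means and a dotted line at the filter of log2 4. CCND1 stays below its 0 h level to 96 h, where CCND3, CCNE2 and CDKN1B have means close to those of 0 h and CDK2 lies 0.50 lower.

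CCNE1 and CCNE2 encode cyclins E1 and E2, which activate CDK2 at the start of S phase. CCNE2 (205034_at) measured 6.59, 7.28, 7.27 and 7.28 at 0 h, 5.24, 5.58 and 5.27 at 18 h, and 4.11, 2.99 and 4.00 at 36 h. It measured 4.82 and 4.03 at 53 h, 4.06 and 4.45 at 72 h, and 7.54 and 6.55 at 96 h. All arrays from 18 h to 72 h lay below all untreated ones, and the 96 h arrays lay on both sides of the untreated mean. CCNE2 fell 10.6-fold by 36 h, a change of -3.41 (adjusted p = 6.45e-07), and rose 6.94-fold between 72 h and 96 h, a change of 2.80 (SE 0.41, adjusted p = 0.000241). Its change at 96 h against 0 h was -0.057 with a 95% interval of -0.82 to 0.71, so differences within that range were not excluded. A second CCNE2 probe set (211814_s_at) reached log2 4 on 1 array and was not tested.

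CCNE1 (213523_at) was a dim signal, above log2 4 on 5 arrays only. It measured 3.20, 5.13, 5.08 and 4.74 at 0 h, 1.98, 3.19 and 3.25 at 18 h, and 2.42, 2.61 and 3.10 at 36 h. It measured 3.12 and 3.17 at 53 h, 3.05 and 2.92 at 72 h, and 5.58 and 4.20 at 96 h. Untreated replicate 1 was as low as the treated arrays up to 72 h, and both 96 h arrays were above all arrays of 18 h to 72 h. CCNE1 was called lower at 36 h (fitted change -1.83, adjusted p = 0.0034). The untreated mean was 1.45-fold above log2 4, taken as the most that the dim arrays of 36 h could hold. That mean includes replicate 1, itself below log2 4, so 1.45 is no strict lower bound on the fold. CCNE1 was called lower at the other times up to 72 h too (adjusted p = 0.014, 0.0322 and 0.0179). Its change at 96 h against 0 h was 0.35 with a 95% interval of -0.78 to 1.48. The call at 18 h was lost without replicate 1 of 18 h (-1.32, adjusted p = 0.0796). That at 53 h was lost without untreated replicate 2, 3 or 4 or either array of 53 h (adjusted p from 0.0602 to 0.119), and that at 72 h without either array of 72 h (adjusted p = 0.0678 and 0.0905). CCNE1 was at least 1.85-fold higher at 96 h than at 72 h (fitted change 1.90, SE 0.61, adjusted p = 0.0349), but not without replicate 1 of 96 h (1.21, adjusted p = 0.285) or without replicate 1 or 2 of 72 h (adjusted p = 0.116 and 0.136).

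CDK2 encodes the kinase that E cyclins activate. Its brighter probe set (204252_at) measured 9.04, 9.18, 9.17 and 9.40 at 0 h, 8.17, 8.61 and 8.44 at 18 h, and 6.49, 6.49 and 6.61 at 36 h. It measured 6.86 and 7.17 at 53 h, 7.17 and 7.28 at 72 h, and 8.85 and 8.54 at 96 h. The 36 h arrays were the lowest of all and lay close together, and both 96 h arrays were above all arrays of 36 h to 72 h but below the untreated ones. CDK2 fell 6.34-fold by 36 h, a change of -2.66 (adjusted p = 2.79e-09), and rose by 1.47 between 72 h and 96 h (SE 0.17, adjusted p = 3.16e-05). At 96 h it was 0.50 below 0 h, a change of -0.50 (95% interval -0.81 to -0.18, adjusted p = 0.0099), which without replicate 2 of 96 h was -0.34 (adjusted p = 0.141). The second probe set (211804_s_at), whose arrays of 36 h to 72 h were all below log2 4, was at least 3.94-fold lower at these times and at least 2.64-fold higher at 96 h than at 72 h (adjusted p = 0.00724). Its change at 96 h against 0 h was -0.57 with a 95% interval of -1.22 to 0.068, and it passed with arrays centred on their medians (-0.76, adjusted p = 0.0443) or without untreated replicate 1 (-0.74, adjusted p = 0.0464). Another CDK2 probe set (211803_at) measured 2.17 to 2.23 and was not tested.

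CDK4 and CDK6 encode the partners of D cyclins. CDK4 measured 11.10, 11.21, 11.21 and 11.30 before doxycycline, 10.89, 11.06 and 11.03 at 18 h, and 10.57, 10.82 and 10.85 at 36 h. It measured 10.72 and 10.86 at 53 h, 10.75 and 10.82 at 72 h, and 10.91 and 11.18 at 96 h. The arrays of 18 h to 72 h lay below the untreated ones by little, and the 96 h arrays overlapped them. The change was small, -0.46 at 36 h (adjusted p = 0.000439) and -0.42 at 53 h (SE 0.10, adjusted p = 0.00236), and at 18 h and 96 h it did not pass (-0.21, adjusted p = 0.0936, and -0.16, adjusted p = 0.185). With replicates as a block CDK4 passed at 18 h (-0.18, adjusted p = 0.0414), and with arrays centred on their medians at 96 h (-0.35, adjusted p = 0.0149). CDK6 measured 4.66, 4.56, 4.66 and 4.68 at 0 h, 4.68, 4.70 and 4.68 at 18 h, and 5.03, 4.77 and 4.99 at 36 h. It measured 5.10 and 6.35 at 53 h, 5.55 and 5.19 at 72 h, and 4.68 and 4.69 at 96 h. CDK6 was thus near the filter at 0 h, 18 h and 96 h, and 1 of the 53 h arrays stood far above the other. It was higher at 53 h (1.08, SE 0.25, adjusted p = 0.00158) and at 72 h (0.73, adjusted p = 0.0172). Without replicate 2 of 53 h the change at 53 h was 0.46 (adjusted p = 0.0347) and without replicate 1 it was 1.71, and without replicate 1 of 72 h the change at 72 h was 0.55 (adjusted p = 0.16). Without either array of 53 h, CDK6 also passed at 36 h (0.29, adjusted p = 0.0407 and 0.0412), as it did with replicates as a block (0.30, adjusted p = 0.0307), and from 72 h to 96 h (-0.69, adjusted p = 0.00531 and 0.00538).

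CDKN1B encodes p27, the inhibitor of cyclin E-CDK2, and was the member that rose within 18 h. It measured 10.55, 10.33, 10.42 and 10.02 at 0 h, 11.28, 11.05 and 10.96 at 18 h, and 11.24, 11.37 and 11.51 at 36 h. It measured 11.42 and 11.25 at 53 h, 10.81 and 10.98 at 72 h, and 10.07 and 10.66 at 96 h. All arrays from 18 h to 72 h lay above all untreated ones, and the 96 h arrays lay on both sides of the untreated mean. CDKN1B rose 2.06-fold by 36 h, a change of 1.04 (adjusted p = 3.18e-05), after 0.77 at 18 h (SE 0.15, adjusted p = 0.00214). It was still 0.56 higher at 72 h (adjusted p = 0.00846), which without replicate 2 of 72 h was 0.48 (adjusted p = 0.0847). Between 72 h and 96 h its change of -0.53 did not pass (adjusted p = 0.061), but without replicate 2 of 96 h it was -0.82 (adjusted p = 0.0102), and it passed without untreated replicate 4 as well (adjusted p = 0.0398). Its change at 96 h against 0 h was 0.036 with a 95% interval of -0.32 to 0.40.

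**Figure D2:**
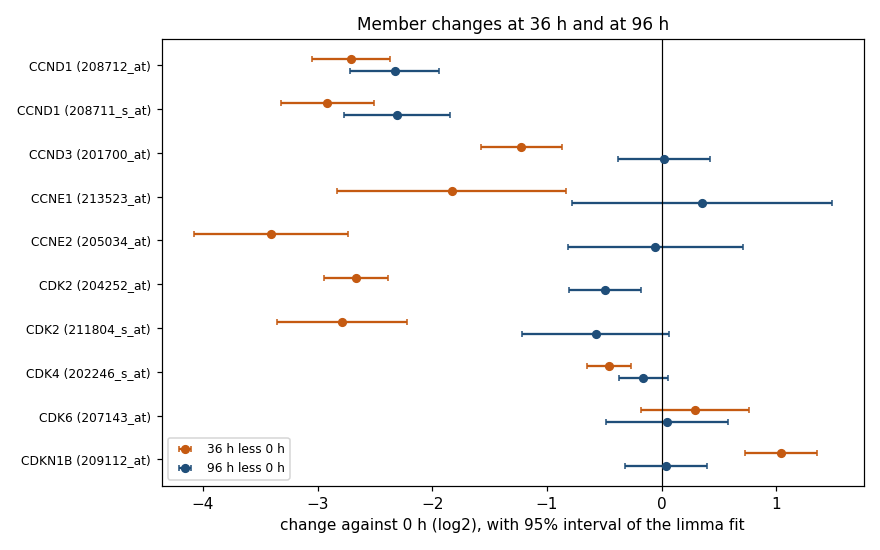
Log2 change against 0 h (horizontal axis) of the 10 probe sets tested (vertical axis) at 36 h and at 96 h, as points with 95% intervals. At 36 h the intervals of 9 probe sets exclude 0, and at 96 h those of 3 do, both CCND1 probe sets and 204252_at of CDK2.

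Neighbouring times were compared to place the changes in time. From 18 h to 36 h 6 of the 10 probe sets fell, where 21.4% of all did. CCND1 changed by -0.94 and -1.21, CCNE2 by -1.66, CDK2 (204252_at) by -1.87 and CDK4 by -0.25 (adjusted p = 0.0486, and 0.0525 to 0.182 in 10 of the 16 fits that left out 1 array). The second CDK2 probe set, dim at 36 h, was at least 1.66-fold lower than at 18 h. CCND3, at -0.45, did not pass (adjusted p = 0.0511), and did with replicates as a block (adjusted p = 0.0172) or without replicate 1 of 18 h (-0.69, adjusted p = 0.00147). From 36 h to 53 h and from 53 h to 72 h limma called 0 of 10 in each step, with 2 at an unadjusted p under 0.05 in each, where 10.8% and 14.7% of all were called in either direction. From 72 h to 96 h 5 rose, those of CCND3, CCNE1, CCNE2 and CDK2, where 14.8% of all did.

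The difference in return between cyclin D1 and CCND3, CCNE2 and CDK2 was taken within each array. These 3 were chosen with earlier results of these data known. The mean differences follow from the changes given above, so they are no further evidence, and only the spread within arrays is new. The level of CCND3 less that of CCND1 on the same array was 2.35 higher at 96 h than at 0 h on the log2 scale. For CCNE2 less CCND1 this was 2.27, and for CDK2 less CCND1 it was 1.83. In all 3 cases the 2 arrays of 96 h lay above the 4 of 0 h. The exact two-sided permutation test gave p = 0.0667 for each, the smallest that 15 arrangements of 4 and 2 arrays allow, and the same value after adjustment over the 3 comparisons, so this design could not pass 0.05.

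Over the 16 arrays, which share 6 times and so are not independent, CDKN1B ran opposite to CCND3 (r = -0.914), and CDK2 ran with CCNE2 (r = 0.932). CCND1 and CCND3 were less alike (r = 0.693). Among 7313 other genes the 3 most like CDK2 in their pattern were MCM3 (r = 0.984), MCM4 (0.982) and FEN1 (0.980), of which the MCM genes encode subunits of the replicative helicase and FEN1 a nuclease of DNA replication. Those most like CCND1 were CSPG5 (0.985), SLC35F2 (0.980) and ARPC5L (0.979). For CCND3 they were TMEM109 (0.975), FADD (0.972) and STEAP3 (0.960), for CCNE2 TYRO3 (0.960), BZW1 (0.937) and FN3KRP (0.935), and for CCNE1 MMP1 (0.893), HMOX2 (0.860) and FADD (0.858). For CDKN1B they were PHC1 (0.960), CRBN (0.956) and SETDB1 (0.954), for CDK4 CLN6 (0.954), PTGES2 (0.951) and MAD1L1 (0.943), and for CDK6 SRRM2 (0.898), MARCHF6 (0.878) and BDNF (0.876).

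The letters before the start sites are shown for a cyclin (CCNE1), an inhibitor (CDKN1B) and a kinase (CDK4), since the series concerns E2F and ETS factors. The dim signal of CCNE1 was called lower up to 72 h, and its level at 96 h was measured too loosely to place. RefSeq promoters on GRCh38.p14 were matched for 6 of the 10 members, with 11 start sites, and none was used for CCND1, CCND2, CCNE2 and CDK2. Each sequence is the 250 bases before the start, 5′ to 3′ on the gene's strand, and capitals mark matches on either strand to a 6-letter core of the E2F site (TNNCGC, with each N being C or G). CCNE1 (chr19:29811741-29811990, plus strand) had 3 matches, beginning 125, 108 and 20 bases before the start. CDKN1B (chr12:12717118-12717367, plus strand) had 1 match, beginning 64 bases before the start. CDK4 (chr12:57752311-57752560, minus strand) had 0 matches.
CCNE1: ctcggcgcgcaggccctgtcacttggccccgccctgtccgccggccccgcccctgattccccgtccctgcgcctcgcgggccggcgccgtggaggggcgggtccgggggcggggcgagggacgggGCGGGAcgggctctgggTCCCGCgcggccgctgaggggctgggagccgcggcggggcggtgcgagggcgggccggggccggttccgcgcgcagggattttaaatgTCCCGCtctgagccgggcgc
CDKN1B: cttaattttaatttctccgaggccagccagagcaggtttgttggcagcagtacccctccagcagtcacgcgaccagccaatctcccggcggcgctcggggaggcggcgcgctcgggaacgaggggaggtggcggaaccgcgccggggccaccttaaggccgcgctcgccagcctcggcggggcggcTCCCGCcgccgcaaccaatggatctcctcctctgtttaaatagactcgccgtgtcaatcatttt
CDK4: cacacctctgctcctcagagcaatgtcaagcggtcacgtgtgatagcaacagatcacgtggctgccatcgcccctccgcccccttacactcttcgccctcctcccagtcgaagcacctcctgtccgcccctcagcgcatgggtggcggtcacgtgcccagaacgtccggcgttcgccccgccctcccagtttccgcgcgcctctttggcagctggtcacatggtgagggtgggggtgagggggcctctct

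The 6-letter core was chosen after the 8-letter form (TTTNNCGC, with the same letters at N), which contains it as its last 6 letters, had matched 0 of the 11 start sites. The core matched 7 of the 11 start sites, and 41.3% of 35116 RefSeq promoters of the same length held it. Some of the 11 are alternative starts of 1 gene, and some belong to CDKN2C, which has no values here. Among members not printed, the starts of CCND3 held 2, 1 and 0 matches, those of CDK6 1 each, and those of CDKN2C 0, 8 and 0. The 8-letter form was held by 2.79% of these promoters. The ETS letters CCGGAAGT matched 0 of 11 and 3.42% of all, and the GGAA repeat GGAAGGAA, which shares letters with some ETS matches, 0 of 11 and 3.06% of all. A match describes letters in the window only.

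Genes that act on the members or below them were counted against 0 h in the same fit. Of all probe sets, 14.3%, 31.8%, 33.2%, 36.9% and 34.2% were lower at the 5 times in order. Of 7 genes that control the breakdown of p27 and cyclin E, 1 was lower at 18 h and 5 at each later time. SKP2, the F-box protein that marks p27 for breakdown, changed by -0.90 within 18 h (SE 0.19, adjusted p = 0.00421). Its change was -1.73, -1.01, -2.82 and -2.89 at the later times (at 96 h SE 0.22, adjusted p = 1.46e-07). At 96 h SKP2 RNA was still low while CDKN1B RNA was near the level of untreated cells, and p27 protein was not measured. SKP2's cofactor CKS1B changed by -1.71 up to 36 h, and by 96 h its change was -1.31, while CKS2 had changes of -0.93 and -1.22. FBXW7, the F-box protein for cyclin E, was the 1 gene of this list that rose, by 0.45 at 53 h (adjusted p = 0.0126), and is named after its values were seen. The median change of the list was -0.504 at 36 h and -0.511 at 96 h, against 0.0228 and -0.101 for all genes.

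Of the other inhibitors of these kinases, 0 of 2 tested passed at 18 h in limma, and 0 at an unadjusted p under 0.05. The changes of CDKN1A (p21) at the 5 times were -0.30, 0.70, 1.30, 1.44 and 0.99, with adjusted p-values of 0.555, 0.0824, 0.00794, 0.00396 and 0.0367. CDKN1C (p57), below log2 4 on all untreated arrays, was called higher from 36 h to 72 h (adjusted p = 0.00946, 0.0189 and 0.000947), and not at 96 h (adjusted p = 0.21). The difference in timing from CDKN1B was not tested. CDKN2A, CDKN2B and CDKN2D, 3 of the 5 genes of the list, were below the filter, and A673 is known to lack CDKN2A.

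The CDK-activating kinase, the CDC25 phosphatases and WEE1 add or remove the phosphates that switch CDKs on and off. Of 7 of their genes, the counts that were lower at the 5 times were 2, 6, 5, 6 and 6. The shares of all probe sets that were lower were 14.3%, 31.8%, 33.2%, 36.9% and 34.2%. CDC25A, the phosphatase that activates CDK2, changed by -1.90 at 18 h (SE 0.27, adjusted p = 0.00028) and was still 2.30 lower at 96 h (change -2.30, SE 0.31, adjusted p = 2.55e-05). Between these times its arrays were all below log2 4. WEE1, a kinase that inhibits CDKs, had a change of -1.29 at 36 h and of -0.52 at 96 h. CCNH, the cyclin of the activating kinase, had changes of -0.29, -0.52, -0.66, -1.10 and -0.91 at the 5 times. The 2 that rose were CDC25B at 18 h (0.29, adjusted p = 0.0364) and CDK7 at 72 h (0.29, adjusted p = 0.0374), both named after their values were seen.

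Most RB and E2F genes, on which the members act, and the genes that E2F drives were lower at 36 h and at 96 h. Of 10 pocket protein and E2F genes, the counts that were lower at the 5 times were 5, 8, 8, 9 and 7. Among all probe sets 14.3%, 31.8%, 33.2%, 36.9% and 34.2% were lower. The median change of the 10 genes was -1.33 at 36 h against -0.561 at 96 h. E2F1 had changes of -1.88, -3.12 and -1.71 at 18 h, 36 h and 96 h, and E2F5 had changes of -2.15, -2.20 and -2.54. E2F8 had changes of -3.24 and -1.49 at the last 2 of these. RBL2, a pocket protein named after its values were seen, was the 1 gene that rose, by 0.58 at 36 h (adjusted p = 0.00205). Of 19 S phase genes, 17 were lower at 18 h and 19 at each later time, with median changes of -0.677, -2.94, -3.04, -3.16 and -1.11 in order of time. Among them RRM2, a subunit of ribonucleotide reductase, changed by -4.14 at 36 h and -1.47 at 96 h, MCM5 by -3.08 and -0.82, and MCM3 by -2.83 and -0.81. The 5 genes of the A and B cyclins, cyclin F and CDK1, which act after the E cyclins, had a median of -0.206 at 18 h with 0 called in limma and 0 at an unadjusted p under 0.05, and 5 of 5 were lower at each later time. At 72 h CCNA2 had changed by -3.43, CDK1 by -2.80 and CCNF by -3.31, and at 96 h these were -1.27, -0.90 and -1.46.

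**Figure D3:**
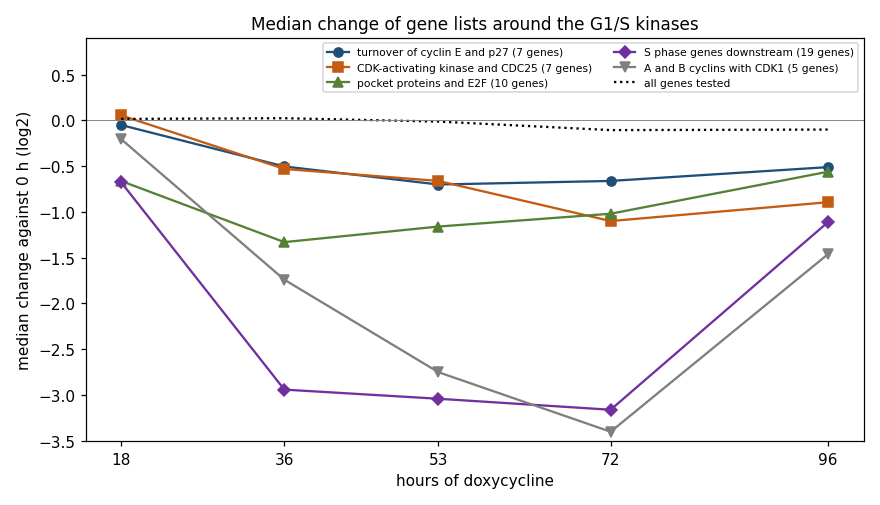
Median log2 change against 0 h (vertical axis) at each hour after doxycycline (horizontal axis) for 5 lists of genes around the members and for all genes tested. The S phase genes reach -3.16 at 72 h and -1.11 at 96 h, and the genes that control the breakdown of p27 and cyclin E stay between -0.701 and -0.504 from 36 h on.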

How the data were processed

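RNA of 16 samples was measured on 1-colour Affymetrix arrays. The values deposited by the authors are on a log2 scale, 1 per probe set, and the submitters' processing notes name GCRMA. This method corrects background from the probes' sequences and makes arrays comparable, so a change is relative to the rest of the RNA and dim values are compressed. Version and settings of GCRMA were not given in the sources used here. The log2 scale was inferred from the values, which ran from 0.388 to 15.2. There were 0 columns of other samples. Groups were the hours in the labels.

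Of 22277 probe sets, 19070 had 1 gene symbol in the platform's annotation, 1043 had several and 2164 had none. Those with a single symbol and 2 or more arrays at log2 4 or above were tested, 10947 in all. CCNE1's probe set and 211804_s_at of CDK2 passed this filter only through the times at which they were high, so they had to differ and their passing is no evidence. Fits used limma 3.58.1 in R 4.3.3 (lmFit with 1 mean per time over 16 arrays, contrasts.fit, eBayes with a mean-variance trend), with residual degrees of freedom of 10. Benjamini-Hochberg adjustment ran over all probe sets tested within a comparison, with a threshold of 0.05. Tables were read with the package data.table (version 1.17.8), and plots were made in Python 3.11.15 using matplotlib 3.10.9. The fit was tested on simulated data with known shifts.

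The members, lists, tests and alternatives were chosen with earlier results of these data known. Named genes were all members, FLI1 in full, for each other list the 3 genes of lowest adjusted p for 36 h against 0 h, and for each member the 3 genes most like it over the arrays. A gene outside this rule is said to be chosen after its values were seen. For lists the brightest tested probe set of a gene was used. A lower bound on a fold takes log2 4 for the dimmer group where every array of that group was below it.

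Replicates are numbered in the labels, with nothing on separate cultures. The p-values therefore reflect only how far these arrays spread, which may be technical. Deviations from the group means correlated for same-numbered arrays, with r of 0.599, 0.514 and 0.456 for 0 h with 18 h, of 0.293, 0.194 and 0.257 for 0 h with 36 h, and of 0.352, 0.233 and 0.308 for 18 h with 36 h. Replicates 2 and 3 also correlated across numbers, with r of 0.403 and 0.514 for 0 h with 18 h. For 0 h with 36 h these were 0.243 and 0.186, and for 18 h with 36 h 0.354 and 0.188. The values thus set replicate 1 apart from 2 and 3, and do not show whether 2 and 3 are paired by number. The labels do not say it either. The main fit took no pairing, and a replicate block over these 3 times was an alternative only. The later times, with 2 arrays each, were not in that block. The number of arrays limits the precision. Alternatives were another rule for probe sets, other filters, centring, a second quantile normalization, replicates 2 and 3 averaged, and array weights. Others were no variance trend, only the groups compared, and leaving out each array. A replicate block was fitted over all arrays and, chosen after the data were seen, over 0 h, 18 h and 36 h alone.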

Additional observations from a re-analysis of the deposited data

Results flagged for a closer look

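Within groups of 4 arrays, the 4 untreated arrays were the only group large enough for Dixon's test of a single array that stands apart, and 10 probe sets were examined. For CCNE2 (205034_at) at 0 h, replicate 1 (6.59) was the lowest, and its gap to the next array was 0.984 of the whole range, above Dixon's 95% critical value for 4 arrays. For CDK6 (207143_at) at 0 h, replicate 2 (4.56) was the lowest, with a gap of 0.868 of the range, though the 4 values lay within 4.56 to 4.68. Chance flags about 1 in 20 such groups.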

How the results depend on the processing

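Under 28 alternative settings, 2345 of 2424 recomputed changes of member probe sets stayed on their side of the threshold. Of the others, 43 no longer passed and 36 newly passed, and 0 called values changed sign. A small change that was not called could turn direction and still be among the 2345. Under settings with 1 value per gene, neither 211804_s_at of CDK2 nor the second probe set of CCND1 had a result of its own. CCNE1's probe set and 211804_s_at passed the filter only through times at which they were high, so their kept calls are no evidence. Of 51 called changes, 42 kept call and sign under every setting that recomputed them, including all of CCND1, CCNE2 and 211804_s_at of CDK2. The other 9 were CCND3 and CCNE1 from 72 h to 96 h, CCNE1 at 18 h, 53 h and 72 h, 204252_at of CDK2 at 96 h, CDK4 from 18 h to 36 h, and CDK6 and CDKN1B at 72 h. The count of called probe sets at 96 h against 0 h was 3, and was 5 with no filter, 5 with arrays centred and 2 to 4 with 1 array left out. From 36 h to 53 h the count was 0, and was 2 with a replicate block over all arrays, 2 with array weights and 0 to 1 with 1 array left out. From 53 h to 72 h it was 0, and was 1 with only the groups compared and 0 to 1 with 1 array left out. From 72 h to 96 h it was 5, and 3 to 7 with 1 array left out. The causes were not tested.

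With arrays centred on their medians the median change of all probe sets moved to -0.111 at 36 h and -0.285 at 96 h, and no member's called direction turned. The replicate block of 0 h, 18 h and 36 h was fitted on their 10 arrays and chosen after the data were seen. It called 9 probe sets at 18 h, 10 at 36 h and 7 from 18 h to 36 h, and the calls it changed are given with the results. The other replicate block ran over all 16 arrays, so it also tied the later times by number, which the check of pairing did not bear out. Under it CCNE1 no longer passed at 53 h (-1.08, adjusted p = 0.106) and 72 h (-1.25, 0.0652). In it CCND1 (208712_at) and CDK2 (204252_at) newly passed from 36 h to 53 h (-0.39, 0.0226, and 0.51, 0.0474), as did CCND1 and CDK4 from 72 h to 96 h (0.54, 0.00285, and 0.26, 0.0306). With replicates 2 and 3 averaged, CCNE1 no longer passed at 18 h (adjusted p = 0.0642), 53 h (0.0946) and 72 h (0.0594) or from 72 h to 96 h (0.0578), nor did CDK6 at 72 h (0.0507) or CDK4 from 18 h to 36 h (0.167). With the mean of all probe sets of a gene, dim ones included, the change from 18 h to 36 h was -1.15 for CDK2 and -0.88 for CCNE2, and that of CDK2 from 72 h to 96 h was 0.98. Dim values limit CCNE1, CDK6 and 211804_s_at most, and the 2 arrays each at 53 h, 72 h and 96 h limit every later comparison.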
